A study of Mus musculus with 12 samples.

Results

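RNA that coprecipitated with Thoc5 was compared with input RNA in primary vascular smooth muscle cells at passage 3. The cells came from the aorta of 6-week-old C57BL/6 mice and carried no engineered allele according to the labels. The precipitate was made with a Thoc5 antibody (Bethyl) by RNA immunoprecipitation (RIP), and the input was RNA from cells of the same passage without antibody. There was 1 library of each, taken from the 12 samples of the series. Every gene in the authors' count table for this pair was kept, which gave 14723 genes, of which 12461 had at least 10 reads in the Thoc5 precipitate. For comparison, a Thoc2 precipitate (Abcam antibody) of passage 3, which shares the input, and a Thoc5 precipitate with its own input at passage 10 were used. A further comparison used RNA-seq of aortic smooth muscle cells at passages 4 to 8, with 2 libraries carrying a short hairpin RNA against Thoc5 (shThoc5) and 2 carrying a non-targeting hairpin (shNT), collected 4 days after infection. Both shThoc5 libraries carry 1 and the same hairpin by their column names, so off-target effects and loss of Thoc5 cannot be told apart there. Nothing in the labels says whether the cells of a library came from 1 animal or from several.

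Thoc5 is a subunit of the THO complex. THO binds nascent RNA during transcription, and with the RNA helicase Ddx39b and the adaptor Alyref it forms the TREX complex. TREX hands messenger RNA to the export receptor, the dimer of Nxf1 and Nxt1, which carries it through the nuclear pore. In smooth muscle cells the contractile genes (actin, myosin, calponin and their partners) mark the differentiated state, and the cells also make large amounts of collagen and other matrix. A RIP enriches transcripts bound by the protein or held in the same particles, and each ratio is relative to the level in the input library. A difference between the libraries is therefore a difference in relative abundance, not in the number of molecules per cell, and a low level in the input raises a ratio as a high level in the precipitate does.

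The Thoc5 precipitate held 5975866 counted reads and the input 36335257, which made the input 6.08 times deeper. Levels are given as CPM, the count of a gene scaled by the library's total. One read corresponded to 0.167 CPM in the precipitate and to 0.0275 CPM in the input. Ratios of precipitate to input were taken after 0.5 CPM had been added to both. Enriched genes are those whose log2 ratio reached 1 and whose level in the precipitate reached 10 reads and 1 CPM. Depleted genes are those whose log2 ratio was −1 or lower and whose level in the input reached the same minimum. By these rules 3069 genes (20.8%) were enriched, 1691 (11.5%) were depleted and 9963 were neither, and the median log2 ratio of all listed genes was 0.14. The enriched genes took 27.4% of the Thoc5 reads and 7.58% of the input reads. Depleted genes took 8.33% of the Thoc5 reads and 26.1% of the input reads. With a single library per group there was no replicate check, so no p-value is given for any ratio. The 95% intervals of folds are exact binomial intervals that cover counting error only. For all 3069 enriched genes the lower bound of that interval was above 1. The balance of the calls moved with the scaling: with TMM factors the median of all genes was −0.10, and 2294 genes were enriched and 2433 depleted. The input of passage 3 was also set against other RNA that was not precipitated, the shNT RNA-seq libraries. Genes called enriched stood at a median log2 difference of −1.29 in this input relative to shNT, and depleted genes at 0.69, beside −0.34 for all listed genes. In the Thoc5 precipitate relative to the same shNT libraries the medians were 0.32 for enriched genes, −0.86 for depleted genes and −0.21 for all. The calls use that input and precipitate, which by itself favours these directions, so these medians cannot show whether the input itself differed. Passage, culture and library preparation cannot be told apart here either, so a ratio to input is not a measure of binding. No precipitate made with a control antibody was used here. The counts in the gene lists are to be read against the 20.8% and 11.5% of all genes.

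**Figure D1:**
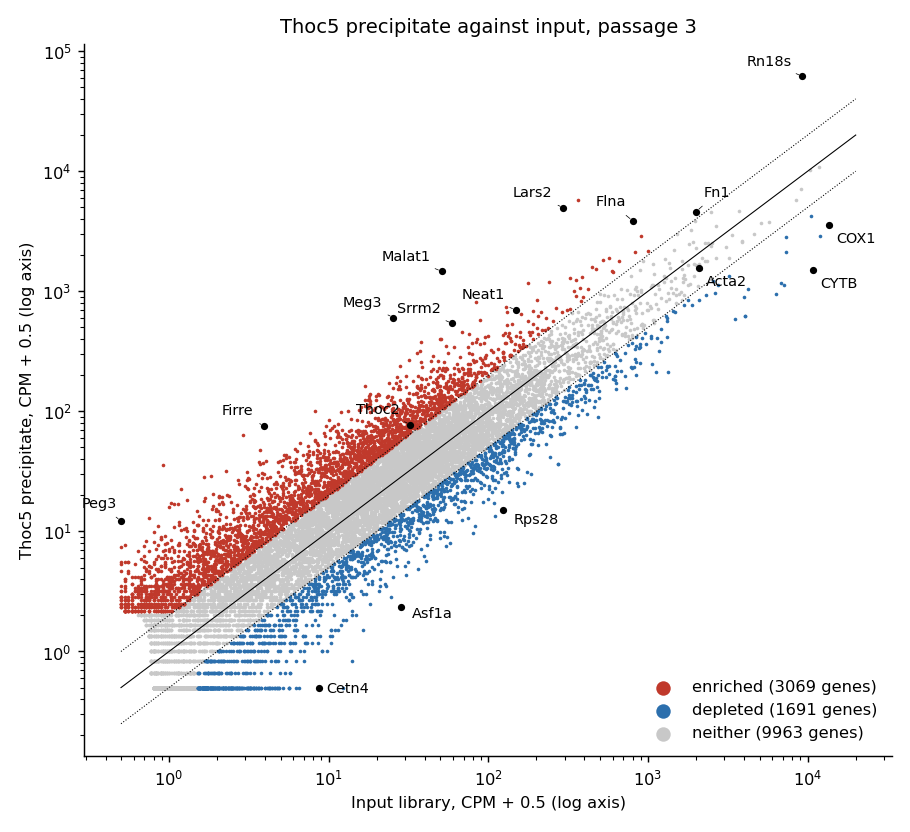
Level of each of 14723 genes in the Thoc5 precipitate (vertical axis) and in the input (horizontal axis) at passage 3, in CPM with 0.5 added, on log axes. The solid line marks equal levels and the dotted lines a 2-fold difference, and Malat1, Meg3, Lars2 and Rn18s lie far above the lines while Cetn4, Asf1a, Rps28 and CYTB lie far below.

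Among 25 listed microRNA precursor genes, 5 (20%) were enriched and 2 (8%) were depleted, near the 20.8% and 11.5% of all listed genes. MicroRNAs are cut from hairpins in longer transcripts, and bases 2 to 8 of the mature strand, the seed, pair with target messenger RNAs. The mature strands of 6 of the 7 called precursors are given to show which seeds the called loci carry, from RefSeq (GRCm38.p6), 5′ to 3′ with the seed in capitals. Mir145a was the other called precursor. miR-214-3p and miR-761 share a seed, and the other strands each carry a seed of their own.
mmu-miR-761: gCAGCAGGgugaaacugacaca
mmu-miR-214-3p: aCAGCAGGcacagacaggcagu
mmu-miR-214-5p: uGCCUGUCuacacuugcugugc
mmu-miR-343: uCUCCCUUcaugugcccaga
mmu-miR-22-5p: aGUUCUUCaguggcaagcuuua
mmu-miR-22-3p: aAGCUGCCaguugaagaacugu
mmu-miR-147-5p: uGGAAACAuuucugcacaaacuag
mmu-miR-682: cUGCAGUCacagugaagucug

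Reads were counted over the precursor gene, so they can come from the longer transcript that holds the hairpin and say nothing of the mature strand. Mir214 (chr1, plus strand, miR-214-3p at 162223438 to 162223459) had 23 Thoc5 reads and 21 input reads, a 6.66-fold enrichment with an interval of 3.52 to 12.7. Its host Dnm3os, a long non-coding RNA antisense to Dnm3, was itself enriched, with 43 Thoc5 reads and 86 input reads. Mir22 had 16 Thoc5 reads and 28 input reads, and its host Mir22hg had 430 and 1795 and was called neither way. Mir761 had 14 Thoc5 reads and 3 input reads, within Nrd1, which was enriched at a log2 ratio of 1.10. Mir343 had 11 Thoc5 reads and 5 input reads, within Ercc2, a helicase of DNA repair, at a log2 ratio of 1.25. Mir145a, known as a smooth muscle microRNA, had 10 Thoc5 reads and 1 input read, a ratio of 60.8 with an interval of 8.65 to 2639 that leaves its size undetermined. Mir761, Mir343 and Mir145a had few input reads, so they were listed mainly through their reads in the precipitate. On the depleted side, Mir147 had 19 Thoc5 reads and 797 input reads, and its host AA467197 had 85 and 1639, both depleted. Mir682 had 2 Thoc5 reads and 178 input reads.

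An entry without a gene symbol had the highest log2 ratio, 5.29, and was not among the genes named by rule. Of the 20 named genes with the highest ratios, 12 were protein-coding and 4 were long non-coding RNAs, and over all listed genes 24.4% of long non-coding and 20.6% of protein-coding genes were enriched. The 4 long non-coding RNAs act in the nucleus. Malat1, a transcript of nuclear speckles, had 8737 reads (1462 CPM) in the Thoc5 precipitate and 1839 reads (50.6 CPM) in the input, a 28.9-fold enrichment with an interval of 27.5 to 30.4. Meg3, an imprinted non-coding RNA whose span overlaps Rtl1, had 603 CPM in the precipitate and 24.9 CPM in the input, 24.2-fold more (22.5 to 26.0). Firre, a nuclear RNA transcribed from the X chromosome, had 74.8 CPM in the precipitate and 3.44 CPM in the input, 21.7-fold more (17.8 to 26.7). Kcnq1ot1, an imprinted RNA that coats its own chromosomal domain, had 92 Thoc5 reads and 18 input reads, 31.1-fold more (18.6 to 54.7). Neat1, the scaffold of paraspeckles, had 4156 Thoc5 reads and 5381 input reads, a log2 ratio of 2.23.

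Of 15 listed nuclear long non-coding RNAs, 8 were enriched and 2 depleted, and their median log2 ratio was 1.87. The members were far apart from each other, at log2 ratios between 4.84 and −2.03. The depleted members were Dleu2, the host of a microRNA cluster, with 3 Thoc5 reads and 131 input reads, and Airn, an imprinted antisense RNA whose span overlaps Igf2r, with 5 and 108. Jpx, an activator of Xist, had 1 Thoc5 read and 15 input reads, too few to place it. Long non-coding RNAs that host small nucleolar RNAs or work in the cytoplasm stood lower: of 23 listed, 3 were enriched and 6 depleted, with a median of −0.20. The lists also differ in exonic length, with medians of 3949 bases for 8 nuclear members and 895 bases for 20 of the 23. All genes in the quintiles of those lengths had median log2 ratios of 0.46 and −0.59. Among the highest of the 23, Snhg7 had 51 Thoc5 reads and 109 input reads. Mir17hg, a microRNA host rather than a snoRNA host, had 40 and 61. Among the protein-coding genes with high ratios, Peg3, an imprinted zinc finger gene whose span overlaps Peg3os, had 70 Thoc5 reads and 0 input reads, which is at least 142-fold higher when the input is set at 3 reads. Sned1, which encodes a secreted matrix protein, had 375 Thoc5 reads and 88 input reads, 25.9-fold more (20.5 to 33.1). Lyst, a regulator of lysosome size, had 133 Thoc5 reads and 25 input reads, 32.3-fold more (21.0 to 51.8). Bzrap1, which encodes a synaptic adaptor protein, had 74 Thoc5 reads and 9 input reads, 50.0-fold more with a wide interval of 25.0 to 114. Of 27 listed imprinted genes, 7 were enriched and 5 depleted, with a median of −0.26, and the growth factor Igf2 was at the bottom with 1 Thoc5 read and 189 input reads.

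For several of these genes the input level at passage 3 was far below that in the shNT RNA-seq libraries, and the precipitate was near or below those libraries. Malat1 had 1462 CPM in the Thoc5 precipitate and 50.6 CPM in its input, beside 1492 and 2181 CPM in the shNT libraries. Lyst had 22.3 CPM in the precipitate and 0.688 CPM in its input, beside 116 and 90.2 CPM in the shNT libraries. Sned1 had 62.8 CPM in the precipitate and 2.42 CPM in its input, beside 118 and 102 CPM in the shNT libraries. In Firre the values were 74.8 CPM in the precipitate, 3.44 CPM in its input, and 63.2 and 45.3 CPM in the shNT libraries. The passage 10 input was also below both shNT libraries for these genes. It had 220 CPM for Malat1, 17.1 CPM for Lyst, 2.05 CPM for Sned1 and 6.62 CPM for Firre. Of the 20 highest named genes, 13 were listed at passage 10, of which 8 had a lower level in the passage 3 input. All 20 genes were picked for a high ratio to the passage 3 input, which by itself favours a low input level. The median log2 difference of this input from the shNT libraries was −1.77 for the 20 highest named genes, beside −0.34 for all listed genes. Of the 20, 14 were lower in this input than in both shNT libraries, a count not made over all listed genes. Of those 14, 10 were lower by at least 2-fold with 0.5 CPM added. Meg3 differed, with 603 CPM in the precipitate and 24.9 CPM in its input, beside 2.49 and 2.14 CPM in the shNT libraries, as did Npas4, an immediate early transcription factor, with 47.5 CPM in the precipitate and 3.22 CPM in its input, beside 0.541 and 0.761 CPM in the shNT libraries.

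Rn18s and Rn28s1, the genes taken here as ribosomal RNA, made up 6.74% of the Thoc5 reads and 0.962% of the input reads. RefSeq annotates 3 listed genes as ribosomal RNA, among them Rn28s1 but not Rn18s. Of those 3, 1 was enriched and 0 were depleted, with a median log2 ratio of −0.19. Rn18s, the 18S ribosomal RNA, had 61629 CPM in the precipitate and 9256 CPM in the input, 6.66-fold more (6.63 to 6.69). Rn28s1, annotated as 28S ribosomal RNA, had 5772 CPM in the precipitate and 366 CPM in the input, 15.8-fold more (15.5 to 16.1). Lars2, the gene for mitochondrial leucyl-tRNA synthetase, had 4945 CPM in the precipitate and 295 CPM in the input, 16.8-fold more (16.4 to 17.1), which is close to the fold of Rn28s1. In the Thoc2 precipitate of the same passage the log2 ratios to input were 5.61 for Lars2 and 5.44 for Rn28s1. Whether reads of ribosomal RNA entered the count of Lars2 was not tested.

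The transcripts of the THO subunits themselves did not move as one. Thoc2, the largest subunit, had 461 Thoc5 reads (77.1 CPM) and 1164 input reads (32.0 CPM), and at a log2 ratio of 1.25 it was the enriched one of 7 listed. Thoc1 (0.99), Thoc6 (0.89) and Thoc5 itself (0.84, from 333 Thoc5 reads and 1124 input reads) lay below the threshold on the log2 scale. Thoc3 stood at −0.62, and BC005561 (a Thoc2-like gene, with 3 Thoc5 reads and 32 input reads) at −0.46. Thoc7, the smallest of them, was depleted at −1.29, with 32.1 CPM in the precipitate and 79.1 CPM in the input. In order, Thoc1, Thoc6 and Thoc5 had folds of 1.99 (1.81 to 2.19), 1.88 (1.54 to 2.28) and 1.80 (1.59 to 2.04), whose counting intervals overlap.

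The other mRNA export genes were divided as well. Of 28 listed, 9 were enriched and 5 depleted, with a median log2 ratio of −0.06 whose sign differs between scalings. Mcm3ap, which encodes GANP, the scaffold of the TREX-2 complex at the pore, had 75.6 CPM in the precipitate and 19.1 CPM in the input, 3.96-fold more (3.51 to 4.46). Zc3h11a, a zinc finger protein that joins TREX, had 215 CPM in the precipitate and 64.95 CPM in the input. Nxf1, the export receptor, had 188 CPM in the precipitate and 57.0 CPM in the input, 3.29-fold more (3.06 to 3.54). At the low end, Cetn3 (centrin 3) had 12.05 CPM in the precipitate and 67.6 CPM in the input, Nxt2, an Nxt1 paralogue, had 14 Thoc5 reads and 490 input reads, and Eny2, a small TREX-2 subunit, had 151 and 3194. Of 29 listed nucleoporins, 13 were enriched and 2 depleted, with a median of 0.68. Nup214, of the cytoplasmic face of the pore, had 556 Thoc5 reads and 953 input reads, while Nup35 and Nup37 had 10 and 31 Thoc5 reads and 184 and 425 input reads.

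Among 40 SR proteins and splicing regulators, 16 were enriched and none was called depleted, and the median log2 ratio was 0.87. Srrm2, the core protein of nuclear speckles, had 539 CPM in the precipitate and 58.7 CPM in the input, 9.18-fold more (8.69 to 9.71). Ccnl2, a cyclin that associates with splicing kinases, had 316 CPM in the precipitate and 36.9 CPM in the input, 8.56-fold more (7.98 to 9.19). Son, another speckle protein, had 2034 Thoc5 reads and 2193 input reads, a log2 ratio of 2.49. The classical SR proteins Srsf1 and Srsf6 stood at log2 ratios of −0.68 and −0.73. Of 24 hnRNP genes, 1 was enriched and 3 were depleted: Hnrnpul1 had 288 Thoc5 reads and 724 input reads, and Hnrnph2 and Pcbp2 were depleted at log2 ratios of −1.52 and −1.37. Syncrip, the other depleted one, had 634 Thoc5 reads and 7752 input reads, just past the threshold.

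Chromatin modifiers and remodellers were the most often enriched list of protein-coding genes with more than 20 members. Of 62 listed, 50 (80.6%) were enriched and none was called depleted, with a median log2 ratio of 1.63. Crebbp, a histone acetyltransferase, had 38.3 CPM in the precipitate and 3.52 CPM in the input, 10.9-fold more (8.72 to 13.6). Chd7, a chromatin remodeller, had 89 Thoc5 reads and 53 input reads, and Tet2, which oxidises methylcytosine in DNA, had 286 and 206. At the low end were Suz12, Ezh2 and Eed of Polycomb complex PRC2, at log2 ratios of −0.02, 0.33 and 0.43. These genes are long: the median exonic length of the list was 8134 bases, against 2782 bases for all genes with a length and at least 50 reads. The giant nuclear envelope linkers Syne2 and Syne1 had 163 and 109 CPM in the precipitate and 16.4 and 17.4 CPM in the input, 9.94-fold and 6.26-fold more. Of 16 nuclear envelope genes, 4 were enriched and none was called depleted. Of 337 zinc finger genes named Zfp, 92 (27.3%) were enriched and 30 (8.90%) depleted.

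Genes of adhesion and of the collagen family were enriched more often than the 20.8% of all genes, at shares near that of the quintile of longest genes (39.9%), to which both lists belong by their median length. Of 32 integrins and adhesion linkers, 15 were enriched and none was called depleted, with a median log2 ratio of 0.96. Dst (dystonin), a linker of cytoskeletal filaments, had 812 CPM in the precipitate and 83.8 CPM in the input, 9.69-fold more (9.26 to 10.1). Itga2, the collagen receptor subunit α2, had 60 Thoc5 reads and 27 input reads, and Plec (plectin) had 7074 and 8730. Of 22 collagen genes, 9 were enriched and none was called depleted. Col7a1 had 54.05 CPM in the precipitate and 6.11 CPM in the input, 8.85-fold more (7.43 to 10.5), and Col5a3 had 397 CPM in the precipitate and 50.1 CPM in the input, 7.92-fold more (7.45 to 8.43). Col4a5, a basement membrane chain, was lowest at −0.86. Of 49 matrix glycoproteins and proteoglycans, 10 were enriched and 5 depleted, with a median of 0.12 whose sign differs between scalings. Their depleted end held small proteoglycans: Ogn (osteoglycin) had 428 Thoc5 reads and 10138 input reads, and Aspn (asporin) had 4 and 133.

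The contractile genes, which define the cell type, were mostly called neither way. Of 29 listed, 6 were enriched and 1 depleted, with a median log2 ratio of −0.04 whose sign differs between scalings. Acta2, smooth muscle α-actin, had 1557 CPM in the precipitate and 2091 CPM in the input, a fold of 0.744 (0.729 to 0.761). Cnn1 (calponin) and Myl9 (regulatory light chain) stood at −0.35 and −0.85, and Myh11 (smooth muscle myosin heavy chain) at 0.15. The enriched members were led by Ppp1r12b, a myosin phosphatase subunit, with 17.7 CPM in the precipitate and 0.798 CPM in the input, 22.2-fold more (14.6 to 34.8). Flna (filamin A), an actin crosslinker, had 3853 CPM in the precipitate and 803 CPM in the input, 4.80-fold more (4.72 to 4.88). Synm (synemin), an intermediate filament protein, had 76 Thoc5 reads and 88 input reads. Of 20 smooth muscle regulators, 5 were enriched and none was called depleted, among them Notch1, Notch3 and Mkl1, a coactivator of serum response factor, at log2 ratios of 1.99, 1.59 and 1.50. The 10 enriched genes with the most Thoc5 reads included, beside ribosomal RNA, Lars2 and Flna, the matrix genes Fn1 (fibronectin, 27561 Thoc5 reads and 72866 input reads), Tnc (tenascin C), Ltbp2 (a microfibril-associated protein) and Col5a1, and the cytoskeletal gene Myh9 (non-muscle myosin). The fold of those 5 matrix and cytoskeletal genes lay between 2.16 for Tnc and 3.50 for Col5a1.

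**Figure D2:**
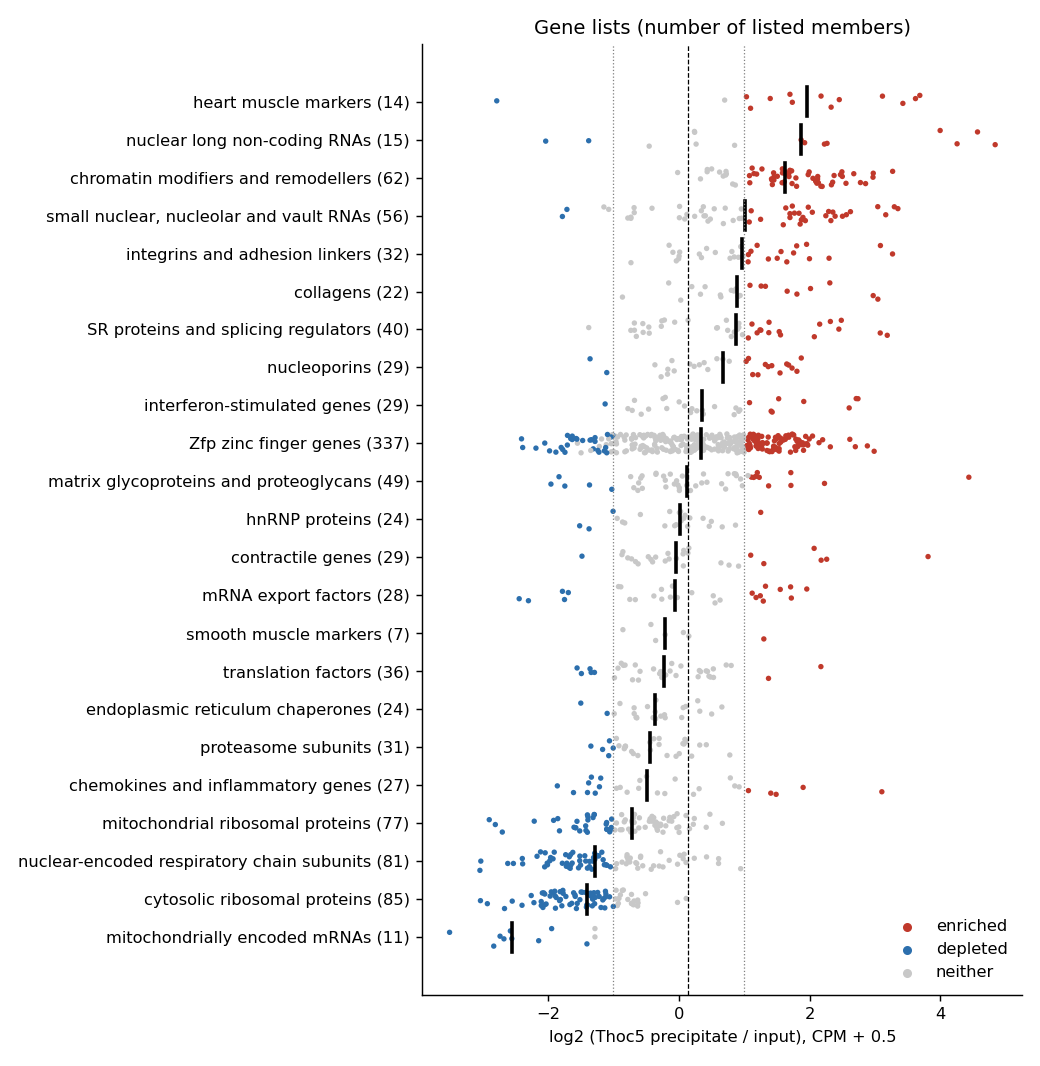
Log2 ratio of Thoc5 precipitate to input for every listed member of 23 gene lists, 1 point per gene, with a black bar at each list's median. The dashed line is the median of all listed genes (0.14) and the dotted lines mark the thresholds of 1 and −1, so that 50 of 62 chromatin genes lie right of the upper one and 65 of 85 cytosolic ribosomal protein genes left of the lower one.

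On the depleted side stood the genes of ribosomes and of oxidative phosphorylation. Of 85 cytosolic ribosomal protein genes, 65 (76.5%) were depleted and none was called enriched, with a median log2 ratio of −1.40. Rps28 had 14.6 CPM in the precipitate and 123 CPM in the input, a fold of 0.119 (0.0948 to 0.147). Rpl39 had 35.6 CPM in the precipitate and 274 CPM in the input, and Rps12 had 211 CPM in the precipitate and 1341 CPM in the input. The highest members were Rpl3 at 0.11 and Rpl10a at −0.02. Some of these genes have near-identical processed copies between which reads could be split, and Rpl37rt, such a copy of Rpl37, was itself among the lowest genes with 6 Thoc5 reads and 575 input reads. Together the ribosomal protein genes took 1.59% of the Thoc5 reads and 4.14% of the input reads.

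Of 77 mitochondrial ribosomal protein genes, 29 were depleted and none was called enriched, with a median of −0.72. Of 81 nuclear-encoded subunits of the respiratory chain, 50 (61.7%) were depleted and none was called enriched, with a median of −1.28. Ndufc1, a small subunit of complex I, had 9.20 CPM in the precipitate and 79.3 CPM in the input, and Uqcrb, of complex III, had 13.05 CPM in the precipitate and 110 CPM in the input. The larger subunits Ndufs1 and Sdha stood at 0.95 and 0.61. Messenger RNAs transcribed inside mitochondria, which do not pass through the nucleus, took 0.979% of the Thoc5 reads and 5.22% of the input reads. Of 11 listed, 9 were depleted and none was called enriched, with a median of −2.55. CYTB (cytochrome b) had 1515 CPM in the precipitate and 10771 CPM in the input, a fold of 0.141 (0.138 to 0.144). ND4 had 5670 Thoc5 reads and 229230 input reads, and COX1 had 21227 and 496497.

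The depleted shares of some smaller groups were closer to the background of 11.5%. Of 31 proteasome subunits, 5 (16.1%) were depleted and none was called enriched, with a median of −0.43, and of 24 chaperones and stress genes of the endoplasmic reticulum, 2 (8.33%) were depleted and none was called enriched, with a median of −0.36. Translation factors were divided: Eif4g3 and Eif4g1, scaffolds of the cap-binding complex, were enriched at 2.17 and 1.37, and 5 of 36 were depleted, among them Eif1ax at −1.55 and Eif3e at −1.49. Of 27 chemokines and inflammatory genes, 8 (29.6%) were depleted and 5 (18.5%) enriched. The 3 lowest were the chemokines Ccl20, Ccl5 and Cxcl5, at −1.86, −1.61 and −1.40, and the 3 highest were the regulators Nlrc5, Tnfaip3 and Nfkb1, at 3.11, 1.90 and 1.49. Of 29 interferon-stimulated genes, 8 were enriched and 1 depleted. Helz2 and Rnf213, which encode very large proteins, had 456 and 1165 CPM in the precipitate and 67.8 and 177 CPM in the input, and Isg15, a small ubiquitin-like protein, had 676 CPM in the precipitate and 1477 CPM in the input. In the replication-dependent histone genes, 4 of 23 were enriched and 4 depleted, and the enriched ones named had few reads (Hist1h2bg had 25 Thoc5 reads and 23 input reads).

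Several of the lowest single genes had no Thoc5 read at all. Cetn4 (a centrin gene) had 0 Thoc5 reads and 298 input reads, which is at least 16.3-fold lower when the precipitate is set at 3 reads. Septin 6 (Sept6) had 0 Thoc5 reads and 217 input reads, at least 11.9-fold lower, and Camp, an antimicrobial peptide gene, had 0 and 207, at least 11.3-fold lower. Asf1a, a histone chaperone whose span overlaps Mcm9, had 11 Thoc5 reads and 1012 input reads, a fold of 0.0661 (0.0329 to 0.119). In all, 234 of the 1691 depleted genes had 0 Thoc5 reads where their share of the input would have given 6.09 to 70.4 reads. Among the 11827 genes for which the input share would have given at least 10 reads in the Thoc5 precipitate, 111 had none, and the same count at passage 10 was 15 of 12246. Of the 234 genes, 144 were listed at passage 10, where their median log2 ratio was −0.41, 25 were depleted, 115 were neither and 4 were enriched. At passage 10 Cetn4 had 10 Thoc5 reads and 21 input reads, and Sept6 had a log2 ratio of −0.14.

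Longer genes were called enriched over this input more often. Exonic length came from the authors' RNA-seq table and was known for 11446 genes with at least 50 reads over both libraries, which covered 90.0% of the enriched and 86.3% of the depleted genes with that many reads. In the shortest quintile of genes (up to 1525 bases) 5.89% were enriched and 30.7% depleted, with a median log2 ratio of −0.59. In the middle quintile the shares were 18.9% and 8.65%, with a median of 0.26. In the longest quintile (4648 to 23242 bases) 39.9% were enriched and 2.88% depleted, with a median of 0.75. Spearman's rho between length and log2 ratio was 0.44 across these genes, as a description, since all points share the same pair of libraries. The median length was 4100 bases for enriched genes and 1464 bases for depleted genes. The calls also went with the input level: 34.5% of genes were enriched in the quintile with the lowest input and 7.08% in that with the highest, and Spearman's rho between input level and log2 ratio was −0.27, where the input enters both measures. In each quintile of input level the rho with length lay between 0.27 in the lowest quintile and 0.56 in the highest. In the quintile with the highest input, 28.1% of the longest genes and 0.503% of the shortest were enriched, and 3.78% and 48.1% were depleted. Chromatin genes were enriched more often (80.6%) than the longest quintile as a whole, and cytosolic ribosomal protein genes, with a median length of 679 bases, were depleted more often (76.5%) than the shortest quintile. So were nuclear-encoded respiratory chain subunits (61.7%), also with a median length of 679 bases. Mitochondrially encoded mRNAs, with a median log2 ratio of −2.55, lay below the −0.59 of the shortest quintile too. Some lists stood nearer to genes of their length: 40.9% of collagens were enriched, near the 39.9% of the longest quintile. Of mitochondrial ribosomal proteins 37.7% were depleted, with a median of −0.72, beside 30.7% and −0.59 in the shortest quintile. Of proteasome subunits 16.1% were depleted, below the 30.7% of the shortest quintile. The input carried a length trend relative to the shNT libraries. Its median log2 difference from the shNT libraries was 0.53 in the shortest quintile and −1.53 in the longest, and that of the Thoc5 precipitate was −0.05 in the shortest and −0.73 in the longest. Long genes were thus low in both passage 3 libraries relative to shNT, and lower in the input. Relative to the passage 10 input, the passage 3 input differed less by length. Its median log2 difference from that input was −0.27 in the shortest quintile and −0.61 in the longest. The part of length in the list results was not tested beyond these values. At passage 10 the rho with length was 0.60 over 11204 genes.

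**Figure D3:**
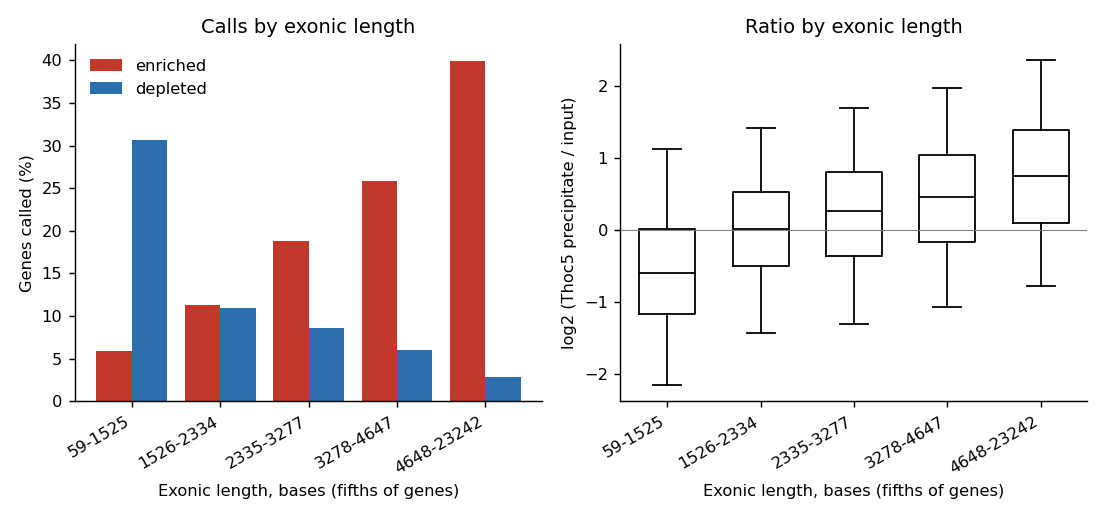
Share of genes called enriched or depleted in the Thoc5 precipitate (left) and distribution of the log2 ratio to input (right), by quintiles of exonic length in bases for 11446 genes. Boxes span the quartiles with the median and whiskers run to the 5th and 95th percentiles; the enriched share climbs to 39.9% in the longest quintile while the depleted share drops to 2.88%.

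Small nucleolar RNAs (snoRNAs) were often enriched although they are short. They are small RNAs of the nucleolus that guide the modification of ribosomal RNA, and most are cut from the introns of host genes. Of 52 listed snoRNA genes, 29 were enriched and 1 depleted, with a median log2 ratio of 1.42. Their counts were low, with 10 to 120 Thoc5 reads for each enriched snoRNA and 1163 Thoc5 reads and 2879 input reads in all. Of the enriched ones, 5 had 0 to 3 input reads, so they were listed mainly through their reads in the precipitate. Of 18 snoRNA genes with at least 50 reads over both libraries, 10 were enriched. Snora70 had 51 Thoc5 reads and 14 input reads (log2 ratio 3.35) within Rpl10, which was depleted at −1.12. Snord35a had 43 Thoc5 reads and 13 input reads (3.17) within Rpl13a, which was depleted at −1.06. Snora65 had 120 Thoc5 reads and 103 input reads (2.63) within Rpl12, which had 1374 and 28887 and was depleted at −1.79. Of 16 snoRNA genes with at least 50 reads and a listed host, 15 had a higher ratio than the host, with medians of 1.95 for the snoRNAs and −0.75 for the hosts. Over all 50 snoRNAs with a listed host, 47 were higher, with a median difference of 1.90 on the log2 scale. The 29 enriched snoRNAs lay in 24 host genes, of which 11 were depleted and 1 was enriched. All of these snoRNAs overlap their host, and the sources used here do not say how reads over both were assigned or whether strand was used, so reads of unspliced host RNA and of the snoRNA cannot be told apart. Of 56 members of the wider list of small nuclear, nucleolar and vault RNAs, 7 overlap no other listed gene, and their median was −0.68. At passage 10, 8 members of the wider list were listed, of which none was called enriched and 3 were depleted, with a median of −1.14.

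**Figure D4:**
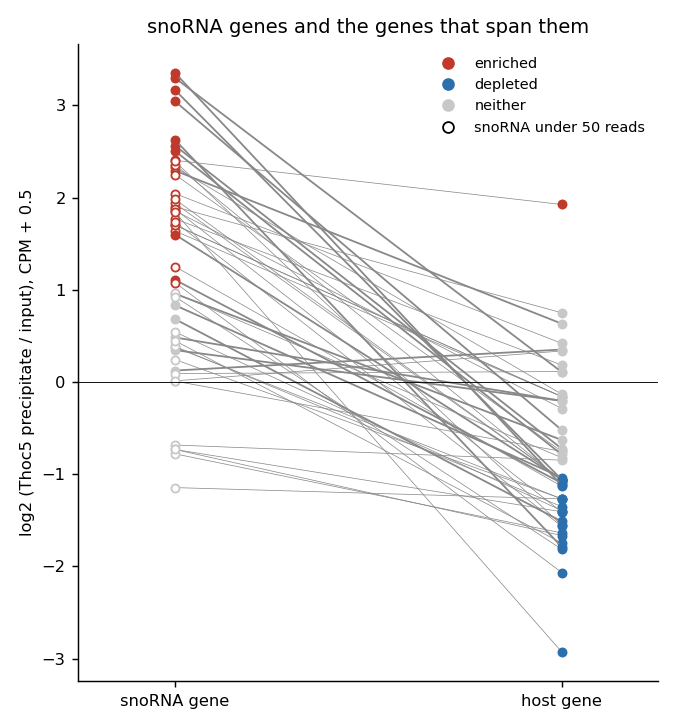
Log2 ratio of Thoc5 precipitate to input for 50 snoRNA genes (left) and the genes that span them (right), joined by lines, with colours for the call. Open points are snoRNAs with fewer than 50 reads; 47 of 50 lines fall toward the host.

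The labelled cell type was checked against marker genes. Of 7 smooth muscle markers all were listed, and Acta2 and Tagln (transgelin) stood at 2091 and 2194 CPM in the input. The other members were lower there: Myl9 had 497 CPM, Cnn1 90.6 CPM, Smtn 85.9 CPM, Lmod1 37.9 CPM and Myh11 6.72 CPM. Markers of other cells were present too: in the input Pecam1 (endothelium) had 44.7 CPM, Csf1r (macrophages) 36.4 CPM and Dcn, a proteoglycan of adventitial fibroblasts that smooth muscle cells also make, 1041 CPM. Of 13 endothelial markers 4 were enriched, with a median log2 ratio of 0.40, of 15 macrophage markers 1 was enriched and 4 were depleted, with a median of −0.28, and of 12 adventitial fibroblast markers 2 were depleted, with a median of −0.59. Heart muscle markers stood apart. Of 20 sought, 14 were listed, 12 were enriched and 1, Nppb, was depleted, with a median of 1.96. In sum they had 460 Thoc5 reads and 964 input reads (77.0 CPM in the precipitate), and no member exceeded 9.85 CPM in the input. Ttn (titin) had 63 Thoc5 reads and 13 input reads, Myh6 (α-myosin heavy chain) 56 and 11, and Mybpc3 (cardiac myosin-binding protein C) 38 and 5. Genes were listed with at least 11 reads over both libraries. Members with few input reads, such as Mybpc3, therefore entered the count and the median mainly through the precipitate. In the Thoc2 precipitate of passage 3, which shares the input, the median of the list was 3.89. In the Thoc5 precipitate of passage 10, which has its own input, 8 members were listed and none was called either way, with a median of −0.39. Without these genes 3057 genes were enriched. Whether RNA of heart muscle entered the precipitates was not tested.

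The Thoc5 precipitate was then set against the Thoc2 precipitate of the same passage, which held 5396291 reads. Of 14511 genes in both tables, 2049 (14.1%) were at least 2-fold higher in the Thoc5 precipitate and 1114 (7.68%) at least 2-fold lower, with a median log2 difference of 0.29. Ribosomal RNA was higher in the Thoc2 precipitate, with a log2 difference of −1.41 for Rn18s between the Thoc5 and the Thoc2 precipitate, and with totals that leave ribosomal RNA out 1531 genes were higher and 1397 lower. Among the 10474 genes with at least 50 reads over both, 1187 (11.3%) were higher and 419 (4.0%) lower. The widest gap upward was that of Snhg20, a snoRNA host transcript, with 102 reads in the Thoc5 precipitate and 3 in the Thoc2 precipitate. Agpat4, an acyltransferase of lipid synthesis, had 190 CPM in the Thoc5 precipitate and 20.8 CPM in the Thoc2 precipitate, and Zcchc9 had 63.4 and 7.04 CPM. Acod1, the enzyme that makes itaconate, had 15.4 CPM with Thoc5 and 1.30 CPM with Thoc2. Vaultrc5, a vault RNA, had 0 reads in the Thoc5 precipitate and 647 in the Thoc2 precipitate. Hirip3, a histone-binding protein gene that overlaps Ino80e, had 13 reads in the Thoc5 precipitate and 219 in the Thoc2 precipitate, and Cenpf (a kinetochore protein) had 0 and 51. Actc1, cardiac α-actin, had 11 reads with Thoc5 and 147 with Thoc2.

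Because both enrichments use the same input, only the values of each antibody are set side by side. Malat1 had log2 ratios to input of 4.84 with Thoc5 and 5.30 with Thoc2, and Srrm2 had 3.19 and 3.21. Meg3 had 4.57 with Thoc5 and 2.24 with Thoc2, and Neat1 had 2.23 and −0.02, so that Neat1 was called with Thoc5 alone of the pair. Crebbp had 3.27 with Thoc5 and 5.08 with Thoc2, Syne2 3.27 and 5.29, and Dst 3.27 and 5.01. Rps28 was low in both, at −3.03 with Thoc5 and −4.35 with Thoc2. In the Thoc2 precipitate 2354 genes (16.1%) were enriched over input.

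The Thoc5 precipitate of passage 10 shares no library with that of passage 3. It held 9364965 reads against an input of 19037316. Over 13233 genes, 749 (5.66%) were enriched and 581 (4.39%) depleted at passage 10. For the 12801 genes listed at both passages Spearman's rho of the log2 ratios was 0.61, as a description across genes of 4 libraries. Enriched at both passages were 531 genes, which is 20.3% of the 2622 enriched at passage 3 and 76.8% of the 691 enriched at passage 10. Depleted at both were 335, which is 22.5% of 1488 and 59.1% of 567. Of the genes enriched at passage 3, 84.5% had a log2 ratio above 0 at passage 10, beside 51.6% of all genes, and their median there was 0.56. Opposite calls were made for 23 genes enriched at passage 3 and depleted at passage 10, and for 10 the other way.

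Firre kept a high ratio, at 4.26 at passage 3 and 2.41 at passage 10, as did Syne2 at 3.27 and 2.70, Kmt2d, a histone methyltransferase, at 2.78 and 2.44, and Lyst at 4.26 and 1.78. Peg3, without an input read at passage 3, had 437 Thoc5 reads and 314 input reads at passage 10. Malat1 was called at passage 3 alone: its log2 ratio was 4.84 at passage 3 and −0.82 at passage 10, where it had 125 CPM in the Thoc5 precipitate and 220 CPM in the input. Meg3 stood at 4.57 and 0.41. The median of the nuclear non-coding list was 1.87 at passage 3 and 0.21 at passage 10, with 1 of 13 listed members enriched there. Rps28, CYTB and Asf1a were low at both, with passage 10 values of −2.08, −1.80 and −0.93. Snora65 stood at 2.63 at passage 3 and at −1.34 at passage 10, from 3 Thoc5 reads and 30 input reads. With 1 library per passage, passage cannot be told apart from differences between single preparations.

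**Figure D5:**
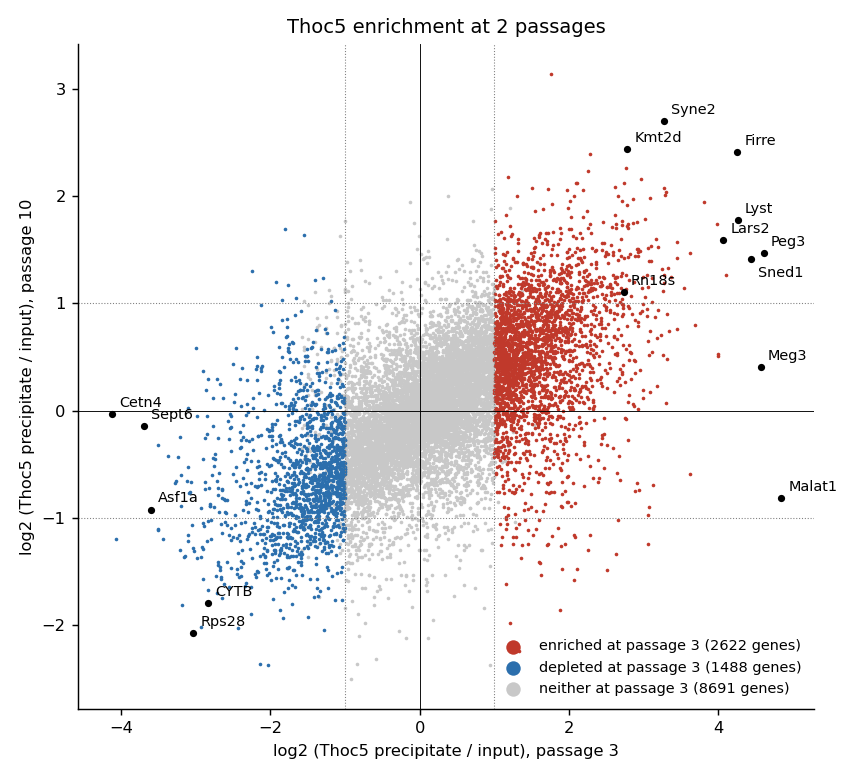
Log2 ratio of Thoc5 precipitate to input at passage 3 (horizontal axis) and passage 10 (vertical axis) for 12801 genes, coloured by the call at passage 3, with dotted lines at the 2-fold thresholds. Firre, Syne2 and Kmt2d are high at both passages, Rps28 and CYTB low at both, and Malat1 is high at passage 3 and below 0 at passage 10.

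RNA-seq after Thoc5 silencing gave a readout that the precipitates did not use. Thoc5 had 7.37 and 5.75 CPM in the shThoc5 libraries and 33.5 and 38.9 CPM in the shNT libraries, a log2 fold change of −2.51 with both silenced libraries below both controls. Its adjusted p was 0.499 by edgeR's quasi-likelihood test over 13569 genes, and its unadjusted p was 3.67e-05. With 2 libraries per group that test called none of the 13569 genes at an adjusted p under 0.05 (0.0%), while 651 had an unadjusted p under 0.05 and DESeq2 called 46. Same-numbered libraries deviated together (correlation 0.696), which this edgeR fit counts as spread. With the replicate number as a block, edgeR called 511 genes. Of 2730 enriched genes that were tested, none was called by edgeR without the block, 70 with it and 8 by DESeq2. With the block, 17.7% of the enriched genes and 18.7% of all tested genes had an unadjusted p under 0.05 by edgeR. The values that follow are from the fit without the block. An unadjusted p under 0.05 was found for 102 of them (3.74%), 52 higher and 50 lower in shThoc5, beside 4.80% of all tested genes. Their median log2 fold change was 0.04, that of 1503 depleted genes −0.02 and that of all tested genes 0.01.

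Single genes of the Thoc5 precipitate did not pass the test either. Malat1 had 1351 and 1762 CPM in shThoc5 and 1492 and 2181 CPM in shNT, and the groups overlapped (log2 fold change −0.29, edgeR adjusted p = 0.9995). Firre had 61.6 and 62.5 CPM in shThoc5 and 63.2 and 45.3 CPM in shNT, which also overlapped. Lyst had 95.3 and 92.5 CPM in shThoc5 and 116 and 90.2 CPM in shNT. Srrm2 had 753 and 661 CPM in shThoc5 and 756 and 581 CPM in shNT. Crebbp was higher in both silenced libraries, with 57.6 and 62.1 CPM in shThoc5 and 48.6 and 52.6 CPM in shNT (log2 fold change 0.19, edgeR adjusted p = 0.9995). Among depleted genes, Dcn had 291 and 306 CPM in shThoc5 and 580 and 528 CPM in shNT, lower in both silenced libraries (log2 fold change −0.94, edgeR adjusted p = 0.9995). Aspn was also lower in both, with 26.3 and 18.3 CPM in shThoc5 and 48.8 and 55.0 CPM in shNT. A missed threshold does not show that a gene was unaltered.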

How the data were processed

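RIP-seq libraries were made with the Magna RIP and TruSeq RNA kits, per the labels' protocols. The submitters' processing notes name bcl2fastq, Subread, featureCounts, limma, MACS2 2.1.1, HOMER 4.8.3 and the mm9 build. Which tool made which file, and whether strand was used, is not stated there. The deposited RIP-seq tables hold read counts per gene, the authors' normalized signal (the count times 1 factor for both libraries) and the authors' ratio, which equalled the quotient of the signals after 2 was added to each. They list genes with at least 11 reads over precipitate and input. The authors' deposited table of selected genes holds a posterior probability of at least 0.303 for 919 genes, of which 876 were enriched here. The deposited RNA-seq tables hold counts, and the authors' log2 fold changes, adjusted p-values and gene length in another table, of which only the length was used.

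Counts were scaled to CPM by column totals (shNT levels too, a comparison chosen after seeing the data), with 0.5 CPM added for ratios. Folds are ratios of CPM without that addition, with exact Clopper-Pearson 95% intervals; a count of 0 was set at 3 reads per library for a bound. PCR reads are not independent molecules. RNA-seq was tested with edgeR 4.0.16 in R 4.3.3 (TMM, filterByExpr, quasi-likelihood, Benjamini-Hochberg, 0.05); DESeq2 1.42.0 was an alternative. Nothing says that libraries of a group came from separate cultures or animals, so p-values measure the spread between libraries, which may be technical. The RNA-seq libraries held 20206296 and 15819207 reads for shThoc5 and 18498200 and 21037732 for shNT. Identifiers were matched to RefSeq GRCm38.p6 (14166 of 14723) for names and overlapping spans only; 3136 genes overlap another listed gene, and antisense partners cannot be told apart without strand. Atp5sl and Rpl7l1, which encode no subunit, were left out of their lists. The 43 lists and all rules were chosen with earlier results of these data known. Genes were named by rule: the 20 highest, the 15 lowest and the 10 most abundant enriched genes, the 3 highest and 3 lowest of each list, the THO subunits, and the 10 highest and 10 lowest against Thoc2. Neat1, COX1, Kmt2d, Son, Eny2, Snora65, Tagln and the microRNA hosts were named after their values were seen.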

Additional observations from a re-analysis of the deposited data

How the results depend on the processing

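The counts of enriched and depleted genes stayed within 1.5 times of 3069 and 1691 under the 9 planned settings (other added amounts, totals without ribosomal RNA or mitochondrially encoded genes, TMM factors, median of ratios, the authors' ratio rescaled by library totals, a 50-read minimum, genes without overlapping spans). With TMM factors 48.5% of the called genes were enriched and with median of ratios 49.3%, against 64.5%. In alternatives chosen after seeing the data, an interval wholly beyond 2-fold left 2250 enriched and 975 depleted genes; the cause was not tested. Of the list medians 1 changed sign past the threshold: small nuclear, nucleolar and vault RNAs stood at −0.68 among genes without overlap, where 7 of 56 members are left. The sign of 11 list medians between −0.06 and 0.19 differed between scalings. For the Thoc5 against the Thoc2 precipitate, 2 CPM added gave 1188 genes higher and 511 lower, and a 50-read minimum, which leaves fewer genes, gave 1187 and 419. After silencing, edgeR called 0 genes; DESeq2 called 46 (8 enriched with Thoc5), no low count filter 1, and omission of each library 0 to 47 (0 to 3 enriched), the highest without shThoc5 replicate 1; each leaves 1 library in an arm, which is assumed to vary like the other group, so these counts are no check of stability. With the replicate number as a block, edgeR called 511 genes, 70 of them enriched with Thoc5. Same-numbered libraries deviated together (correlation 0.696 over 13569 genes), which the fit without the block counts as spread. The block rests on 2 pairs, and what they share beyond the number is not given by the labels. The median log2 fold change of enriched genes stayed between 0.02 and 0.09. The input was deep, and the Thoc5 library limits precision: 1 read is 0.167 CPM, so a count of 0 allows up to 0.502 CPM.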

Other observations

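Several gene groups stood near the median of all listed genes (0.14) in the Thoc5 precipitate against input at passage 3, and their values are given without a test. Of 38 proliferation genes, 7 were enriched and 7 depleted, with a median log2 ratio of 0.12. Of 24 immediate early genes, 2 were enriched and 1 depleted (0.16), of 15 glycolysis enzymes, 2 were enriched and none was called depleted (0.15), and of 21 cholesterol synthesis genes, 2 were enriched and 5 depleted (0.12). The sign of these 4 medians differs between scalings. Of 21 p53 targets, 3 were enriched and 2 depleted (−0.19), and of 29 lysosomal genes, 1 was enriched (Lyst) and 2 were depleted (−0.15). Among markers of other cells, of 7 skeletal muscle markers, 2 were enriched and 1 depleted (0.30), of 6 adipocyte markers 1 was depleted (−0.42), and none of 6 mesothelial or epithelial markers and 7 chondrocyte or bone markers was called.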
